A study of Mus musculus with 6 samples.

Results

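The genes described here are 38 genes of fatty acid uptake and oxidation, measured in the quadriceps of exercised and sedentary AR97Q mice. They were chosen by function, by matching the transcripts behind the array's probes to their symbols, and not by how they differed between the groups. Earlier results of these data were known when the list was chosen. All 38 had at least 1 probe on the array (57 probes of 56605 in all), and all 38 were among the 25005 genes and transcripts tested.

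Quadriceps RNA of 6 mice was hybridized to 1 single-dye Agilent mouse array per mouse, 3 exercised and 3 sedentary. All 6 mice were males at 9 weeks of age on a C57BL/6J background, and all carried the AR97Q transgene, a human androgen receptor gene with an expanded CAG repeat that models spinal and bulbar muscular atrophy (SBMA). The exercise group was made to run on a motor-driven wheel at 5 m/min for 60 min a day, 5 days a week, for 4 weeks from 5 weeks of age, and the sedentary group was the untrained control. Muscle was collected on the day following the final run. No wild-type mice are among these arrays, so a difference between the groups is one within transgenic muscle. Values are log2 spot intensities minus the 75th percentile of the same array, so a log2 difference of 1 is a doubling, and they compare arrays for 1 probe but not probes with each other. Differences are exercise minus sedentary, and a gene is called higher or lower when its adjusted p from limma, with Benjamini-Hochberg adjustment over all 25005 genes and transcripts, was under 0.05. The study's definition of a differentially expressed gene (DEG) adds an absolute log2 difference of at least 1.

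Muscle takes up long-chain fatty acids from blood lipoproteins and albumin, couples them to coenzyme A, and passes them through the carnitine shuttle into the mitochondrial matrix. There the beta-oxidation spiral shortens them in repeated rounds of dehydrogenation, hydration, dehydrogenation and thiolysis, and electron transfer flavoprotein carries electrons from the acyl-CoA dehydrogenases to the respiratory chain. Nuclear receptors of the PPAR, RXR and ERR families control many of these genes, and malonyl-CoA, the product of acetyl-CoA carboxylase, blocks entry of fatty acids into mitochondria.

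Several enzymes of the mitochondrial end of the pathway were called moderately higher in the exercised mice, and others there were not called. Among the genes of lipid release, uptake and storage only Fabp3 was called. In the matrix spiral 3 of 9 genes were called (33.3%) and in uptake 1 of 5 (20%). The parts of the pathway were not tested against each other. Of the 38 members, 8 were called higher: Crat, Fabp3, Acaa2, Etfb, Acads, Eci1, Acot13 and Echs1. That is 21.1% of the members, where 11.5% of all genes and transcripts tested were called higher, and no member was called lower, where 6.15% of all were. The 8 differences lay between 0.37 for Echs1 and 0.66 for Crat on the log2 scale, which are folds of 1.29 and 1.58. No member was a DEG, as against 1.72% of all genes and transcripts upregulated and 1.06% downregulated. At an unadjusted p under 0.05 from limma, 15 members were higher and 0 were lower, where 21.6% of all genes and transcripts were higher and 15.4% lower. The log2 difference was above 0 for 31 of the 38 (52.8% of all genes and transcripts), and its median was 0.23 over the members and 0.03 over all. For 16 members the lowest exercise array exceeded the highest sedentary array (25.0% of all), and for 0 members the reverse held (18.2% of all).

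These calls were lost when any array but Sedentary 1 was left out. Such a fit has fewer arrays, and the part of this in the loss was not tested. With Exercise 1, Exercise 2, Exercise 3, Sedentary 2 or Sedentary 3 left out, 0 members were called, as were 0 or 1 of all genes and transcripts, while 9 to 15 members were higher at an unadjusted p under 0.05, as were 16.5 to 19.5% of all. Without Sedentary 1, 11 members were called higher, as were 13.9% of all. With any 1 array left out, the log2 difference of the 8 called members lay between 0.33 for Echs1 and 0.76 for Crat. Its sign could not have changed, because in each of the 8 every sedentary reading was below the lowest exercise reading. The slide holds its arrays in 2 strips, with all exercise arrays and Sedentary 1 in strip 1 and the other sedentary arrays in strip 2. Within strip 1, the mean of the exercise arrays minus Sedentary 1 ran from 0.33 for Echs1 to 0.48 for Acads over the 8. Its sign was fixed for the same reason, and the median over the 38 members was 0.12. With the strip as a block no member was called, and neither was any gene or transcript called higher, with 3 called lower. Strip and group cannot be fully told apart here, since 2 of the 3 sedentary arrays were alone in strip 2. In bulk RNA, fewer cells of a type and less RNA per cell cannot be told apart.

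**Figure D1:**
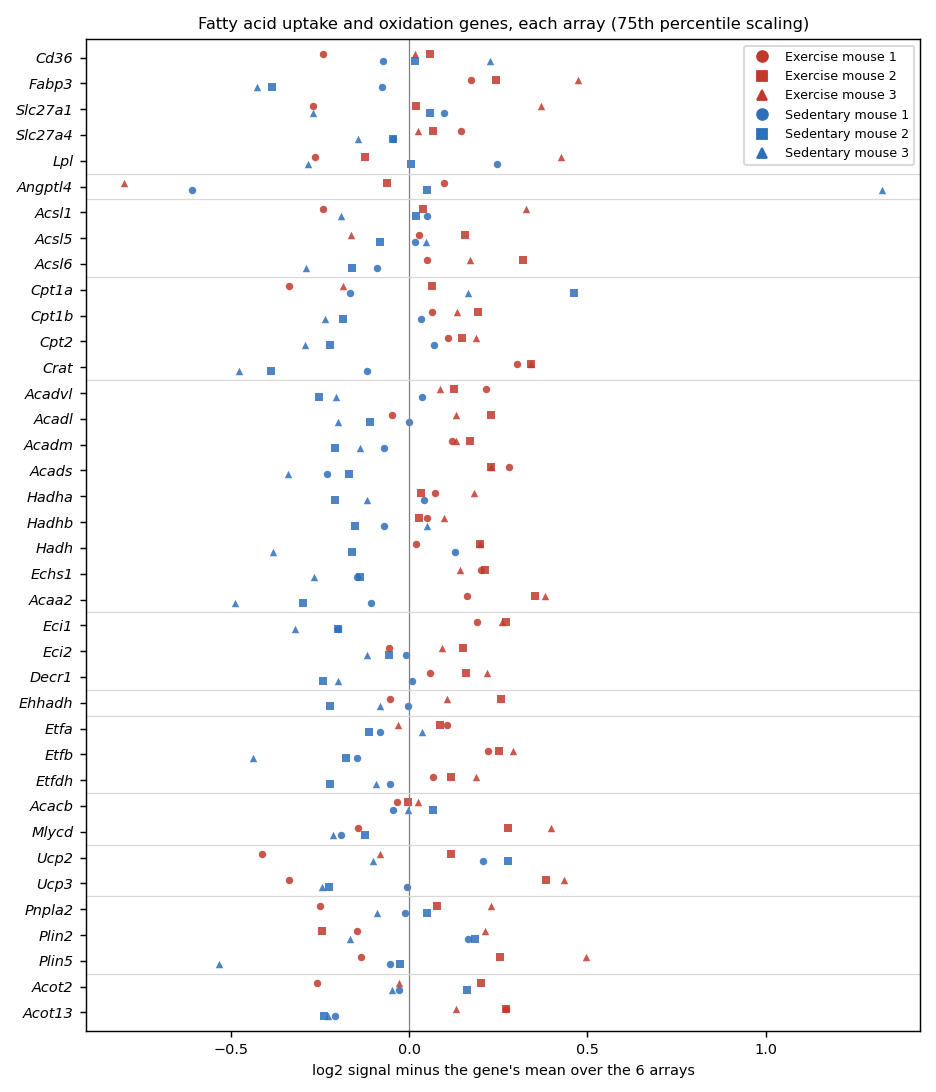
Level of each of the 38 members on each of the 6 arrays, as log2 signal minus the gene's mean over the arrays, with exercise arrays in red and sedentary arrays in blue and with grey lines between roles. The red points of the carnitine shuttle, matrix spiral and electron transfer genes lie mostly right of the blue points, while those of Lpl, Slc27a1, Acsl1 and Plin2 are spread on both sides.

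The arrays themselves differed in brightness and in cell-type markers. The 75th percentile of the signal was 251 to 257 on the exercise arrays and 310 to 384 on the sedentary arrays, 54.6 to 59.9% of probes stood well above background, and there were no saturated spots. Every member was well above background on all 6 arrays with the probe used. The muscle label held, since all 9 skeletal muscle markers were well above background on every array. All 9 were above 0 in log2 difference and 8 were called higher (median 0.93), and their summed signal, in units of each array's 75th percentile, was 5650 to 6310 in the exercise group and 2800 to 3830 in the sedentary group. Of the 8 adipocyte markers, 7 were below 0 in log2 difference with 0 called lower, and Lep was called higher. All 8 were well above background on every array. Their summed signal was 241, 332 and 632 on Exercise 1 to 3 and 547, 556 and 431 on Sedentary 1 to 3. No marker of endothelial cells (10), macrophages (8) or fibroblasts (6) was called. The 4 red blood cell markers tested were all above 0 in log2 difference (median 0.47) with 0 called, and their summed signal was 251, 352 and 277 on the exercise arrays and 320, 165 and 150 on the sedentary arrays. Of 11 markers of fast glycolytic fibres 10 were called higher, and of 10 markers of slow and oxidative fibres 1 was called higher and 2 lower. The part of these shifts in the members' values was not tested.

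Among the genes of uptake, only Fabp3 was called. Fabp3, the heart and muscle fatty acid binding protein that carries fatty acids through the cytosol, read 8.11, 8.18 and 8.41 on the exercise arrays and 7.86, 7.55 and 7.51 on the sedentary arrays. The groups did not overlap, and Sedentary 1 came closest to the exercise arrays. The log2 difference was 0.60 ± 0.14 (SE, n = 3 per group), a fold of 1.51, with adjusted p = 0.0354 by limma, and a second Fabp3 probe differed by 0.63. Cd36, the fatty acid translocase of the plasma membrane, read 3.01, 3.31 and 3.27 against 3.18, 3.27 and 3.48. The groups overlapped, and the 95% confidence interval of the difference ran from -0.42 to 0.20. The fatty acid transport proteins Slc27a1 and Slc27a4 differed by 0.08 and 0.15, neither of them called.

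Lipoprotein lipase (Lpl), which releases fatty acids from circulating triglycerides, differed by 0.02 ± 0.22 (SE), with an interval from -0.52 to 0.56. It read 5.17, 5.31 and 5.86 on Exercise 1 to 3 and 5.68, 5.44 and 5.15 on Sedentary 1 to 3. The spread within either group was thus far wider than the difference between them, and the highest reading, on Exercise 3, came from the exercise array with the highest adipocyte marker sum. Without Exercise 3 the difference in Lpl was -0.19. Fat cells also express Lpl, Cd36, Plin2 and Pnpla2, and the part of fat in their values was not tested. Angptl4, a secreted inhibitor of lipoprotein lipase that fasting and PPAR ligands induce, had the widest range of the 38. It read 3.03, 2.87 and 2.13 in the exercise group and 2.32, 2.98 and 4.26 in the sedentary group. Its difference of -0.51 (interval from -1.76 to 0.74) rested on the high reading of Sedentary 3, without which it was 0.03.

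Of the 3 long-chain acyl-CoA synthetases, which activate fatty acids, Acsl1, the main form of muscle, differed by 0.08 and Acsl5 by 0.01, with overlapping groups. Acsl6 read 1.38, 1.65 and 1.50 on the exercise arrays and 1.24, 1.17 and 1.04 on the sedentary arrays. The groups were apart, and the difference of 0.36 ± 0.11 (SE) had adjusted p = 0.0657. A second, much dimmer Acsl6 probe differed by 1.33 in the same direction, while the second Acsl1 probe differed by -0.12.

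With the brightest probe of each gene, the largest difference of the list was that of Crat, while with the mean of a gene's probes that of Acsl6 was larger (0.85 against 0.69). Crat, the carnitine acetyltransferase of the matrix, which moves acetyl groups between coenzyme A and carnitine, read 5.95, 5.99 and 5.99 on the exercise arrays and 5.53, 5.26 and 5.17 on the sedentary arrays. The exercise arrays were nearly equal and all lay above the sedentary arrays. The log2 difference was 0.66 ± 0.11 (SE, n = 3 per group; fold 1.58; adjusted p = 0.0241), and the second Crat probe differed by 0.72. Cpt1b, the muscle form of the rate-limiting carnitine palmitoyltransferase of the outer membrane, read 5.05, 5.18 and 5.12 against 5.02, 4.80 and 4.75. Cpt2, its partner at the inner membrane, read 5.20, 5.24 and 5.28 against 5.16, 4.87 and 4.80. In both genes the exercise arrays lay just above Sedentary 1 and clearly above the other sedentary arrays. The differences of 0.26 for Cpt1b and 0.30 for Cpt2 did not pass the threshold (adjusted p = 0.127 and 0.118), and against Sedentary 1 alone they were 0.09 and 0.08. Cpt1a, the liver form, differed by -0.31 with overlapping groups. Slc25a20, the carnitine-acylcarnitine carrier that links both transferases, is not among the 38 and differed by 0.26 (adjusted p = 0.218).

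All 9 enzymes of the matrix spiral were above 0 in log2 difference, with a median of 0.27, and 3 were called. Of the acyl-CoA dehydrogenases, ordered from long to short substrates, Acadvl differed by 0.29, Acadl by 0.21, Acadm by 0.27 and Acads by 0.50. Only Acads, the short-chain enzyme, passed the threshold (SE 0.08, fold 1.41, adjusted p = 0.0239). It read 4.40, 4.35 and 4.35 on the exercise arrays and 3.89, 3.95 and 3.78 on the sedentary arrays, so the groups were well apart. Acadm, the medium-chain enzyme, read 6.47, 6.52 and 6.48 against 6.28, 6.14 and 6.21, also without overlap, with adjusted p = 0.0641. Acadvl, the very-long-chain enzyme of the inner membrane, read 7.54, 7.45 and 7.41 against 7.36, 7.07 and 7.12 (adjusted p = 0.106). Whether the dehydrogenases differed from each other in response was not tested, and the interval of Acads (0.30 to 0.71) overlapped those of Acadm (0.08 to 0.47) and Acadvl (0.03 to 0.54).

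The later steps of the spiral showed the same mixture of called and uncalled genes. Echs1, the short-chain enoyl-CoA hydratase, read 4.71, 4.72 and 4.65 against 4.36, 4.37 and 4.24. Acaa2, the thiolase that cleaves off acetyl-CoA, read 6.27, 6.46 and 6.49 against 6.0, 5.81 and 5.62. In both the groups were apart, and they differed by 0.37 ± 0.08 (SE; adjusted p = 0.0344) and 0.60 ± 0.13 (SE; adjusted p = 0.0310). The trifunctional protein, which carries out the last 3 steps on long chains, was not called in either subunit, with 0.19 for Hadha and 0.12 for Hadhb and intervals from -0.05 to 0.43 and from -0.09 to 0.33. Hadh, the dehydrogenase for shorter chains, differed by 0.27 (adjusted p = 0.227), and its Sedentary 1 reading of 4.30 lay above that of Exercise 1 at 4.19.

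Unsaturated fatty acids need auxiliary enzymes before they can pass the spiral. Eci1, the mitochondrial enoyl-CoA isomerase, read 5.61, 5.69 and 5.68 on the exercise arrays and 5.22, 5.22 and 5.10 on the sedentary arrays, with no overlap. It differed by 0.48 ± 0.08 (SE; fold 1.39; adjusted p = 0.0241). Decr1, the dienoyl-CoA reductase, differed by 0.29 (adjusted p = 0.0957) with the groups apart, and Eci2 by 0.12 with overlap. Ehhadh, the bifunctional enzyme of peroxisomal oxidation, differed by 0.20 (adjusted p = 0.241).

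Electron transfer flavoprotein is a dimer of the Etfa and Etfb products, and its electrons pass through Etfdh to ubiquinone. Etfb read 7.22, 7.25 and 7.29 on the exercise arrays and 6.85, 6.82 and 6.56 on the sedentary arrays. The groups did not overlap, and the difference was 0.51 ± 0.11 (SE; fold 1.42; adjusted p = 0.0303), with 0.55 from a second probe. Etfa differed by only 0.11, between 0.07 and 0.15 over its 3 probes, with overlapping groups. Etfdh differed by 0.25 with the groups apart (adjusted p = 0.0995). The intervals of Etfb (0.25 to 0.77) and Etfa (-0.11 to 0.33) overlapped, and the difference between the subunits was not tested.

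**Figure D2:**
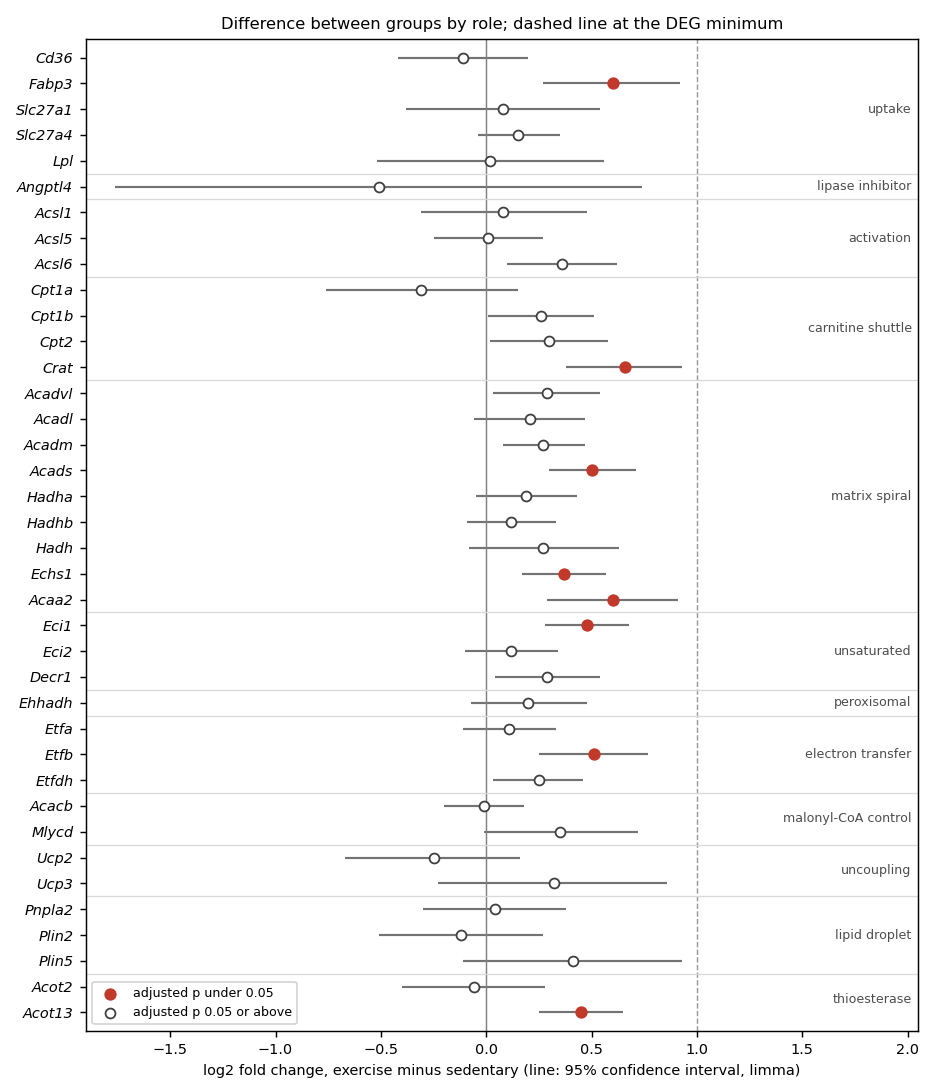
Log2 difference between the groups (exercise minus sedentary) for the 38 members by role, with the 95% confidence interval from limma as a line, red points for adjusted p under 0.05 and a dashed line at a log2 difference of 1. All 9 matrix spiral genes lie right of 0 between 0.12 and 0.60, and Angptl4 has the widest interval.

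Of the genes that set the malonyl-CoA brake, Acacb, the mitochondrial acetyl-CoA carboxylase whose activity AMPK blocks by phosphorylation, read 5.03, 5.06 and 5.09 on the exercise arrays and 5.02, 5.13 and 5.06 on the sedentary arrays. The difference was -0.01 with an interval from -0.20 to 0.18. A second, much dimmer Acacb probe differed by 0.49 with the groups apart, so the probes of this gene did not give the same answer. Mlycd, which removes malonyl-CoA, read 5.23, 5.65 and 5.77 against 5.18, 5.25 and 5.16. Exercise 2 and 3 stood above the sedentary arrays and Exercise 1 among them, and the difference of 0.35 had adjusted p = 0.144. Phosphorylation cannot be read from these arrays.

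The uncoupling, lipid droplet and thioesterase genes were mostly uncalled. Ucp3, a mitochondrial carrier of muscle linked to fatty acid supply, read 0.45, 1.17 and 1.22 on the exercise arrays and 0.78, 0.56 and 0.54 on the sedentary arrays. Exercise 1 had the lowest reading of all and the other exercise arrays the highest, and the difference of 0.32 ± 0.22 (SE) was not called. Ucp2 differed by -0.25. Plin5, the perilipin that holds droplets at mitochondria, read 3.80, 4.19 and 4.43 against 3.88, 3.91 and 3.40, a difference of 0.41 ± 0.21 (SE; adjusted p = 0.213). Plin2, the general droplet coat, differed by -0.12, and Pnpla2, the adipose triglyceride lipase that starts droplet lipolysis, by 0.04. Exercise 1 was the lowest exercise array in 27 of the 38 members.

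Thioesterases release free fatty acids from coenzyme A. Acot13, an acyl-CoA thioesterase tied to mitochondria, read 7.42, 7.42 and 7.28 on the exercise arrays and 6.94, 6.91 and 6.92 on the sedentary arrays. The sedentary arrays were nearly equal and all lay below the exercise arrays, and the difference was 0.45 ± 0.08 (SE; fold 1.37; adjusted p = 0.0251). Acot2, a thioesterase of the mitochondrial matrix, differed by -0.06 with overlapping groups.

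The rest of the pathway, read from 53 further genes of which 52 were tested, had a median log2 difference of 0.06. Of these genes 3 were called higher (5.77%) and 1 lower, where 11.5% of all genes and transcripts were called higher and 6.15% lower. The share called higher was thus below that of all, unlike the share among the 38 members (21.1%). Higher were Acot7 (1.03, adjusted p = 0.0316), a cytosolic thioesterase known mainly from brain, Phyh (0.51, adjusted p = 0.0246), the peroxisomal hydroxylase of phytanic acid, and Mcee (0.50, adjusted p = 0.0288), the epimerase of the route from odd-chain propionyl-CoA to the TCA cycle. Lower was Acot11 (-0.51, adjusted p = 0.0264), another thioesterase. The 12 other genes of peroxisomal oxidation had a median of -0.04, with only Phyh called (8.33%).

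The mitochondrial genes that receive the products of fatty acid oxidation had larger median differences than the members. The 59 subunits of the respiratory chain had a median log2 difference of 0.53, with 56 called higher (94.9%). The 13 enzymes of the TCA cycle had a median of 0.39, with 7 called higher (53.8%), where 11.5% of all genes and transcripts were. The median of the 38 members was 0.23. By array, the respiratory chain lay at 0.21 to 0.30 relative to its own mean on the exercise arrays and at -0.35 to -0.14 on the sedentary arrays, and the members lay at 0.05 to 0.17 and at -0.20 to -0.05. Measured against the median of all genes and transcripts, the members' median was 0.20 and that of the respiratory chain 0.51, and the respiratory chain stayed above the members under each of the other settings tried. The difference between the lists was not tested.

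**Figure D3:**
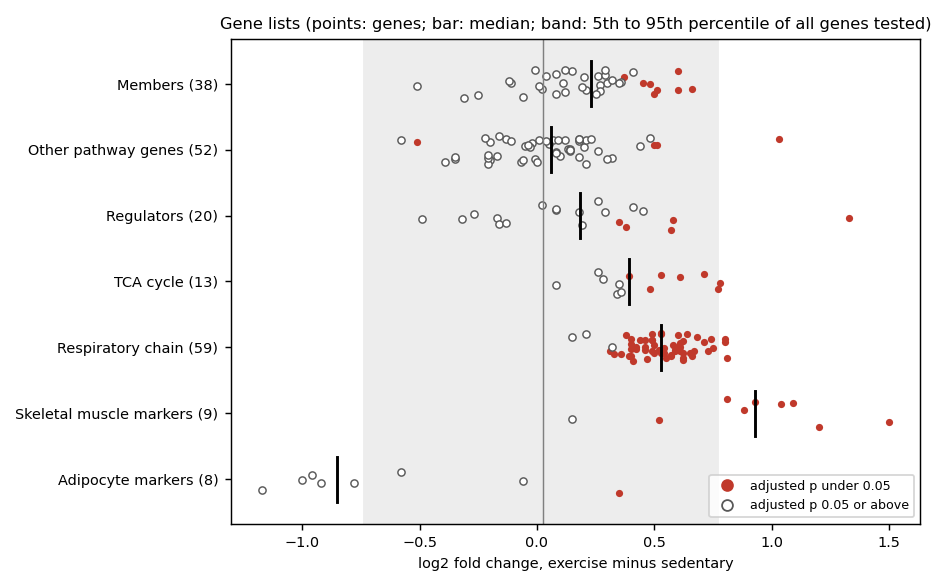
Log2 difference (exercise minus sedentary) of the genes of 7 lists, with each list's number of genes tested in brackets, red for adjusted p under 0.05, a black bar at the list's median and a grey band from the 5th to the 95th percentile of all genes tested. The members' median of 0.23 lies between that of the other pathway genes at 0.06 and that of the respiratory chain at 0.53.

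**Figure D4:**
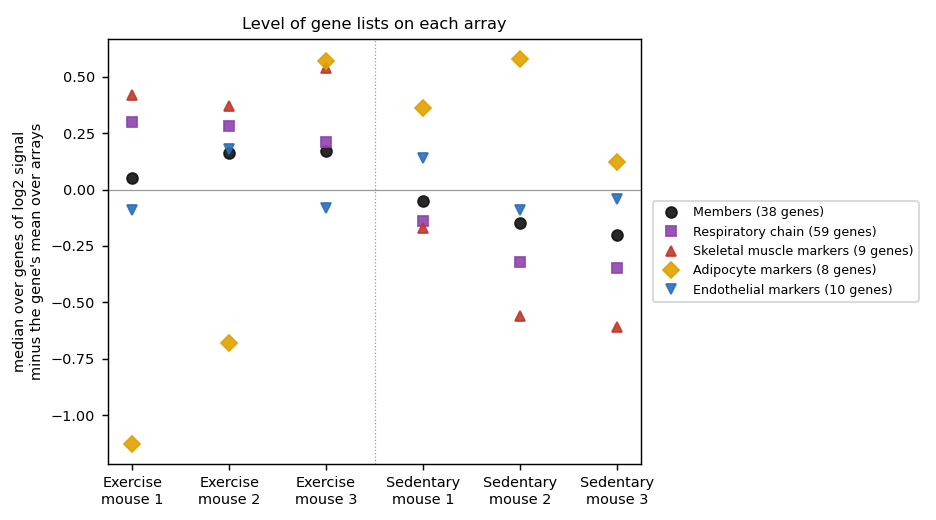
Median over the genes of a list of the log2 signal minus the gene's mean over the 6 arrays, for each array. Members, respiratory chain and muscle markers are above 0 on the 3 exercise arrays and below 0 on the 3 sedentary arrays, while adipocyte markers are high on Exercise 3 as on the sedentary arrays.

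Of the 20 regulators of the pathway, 5 were called higher (25%) and 0 lower, where 11.5% of all genes and transcripts were called higher and 6.15% lower. They were all 3 retinoid X receptors, Rxrg (1.33, adjusted p = 0.0234), Rxra (0.57, adjusted p = 0.0240) and Rxrb (0.35, adjusted p = 0.0470), the estrogen-related receptor Esrra (0.38, adjusted p = 0.0435), which drives mitochondrial genes, and Pdk2 (0.58, adjusted p = 0.0272), a kinase that inhibits pyruvate dehydrogenase. Rxrg read 4.89, 4.61 and 4.52 on the exercise arrays and 3.77, 3.15 and 3.10 on the sedentary arrays, with a wide gap between the groups. The fatty acid receptors Ppara and Ppard differed by 0.08 and 0.19 and the coactivator Ppargc1a by 0.08, none of them called. Pdk4, a PPAR target that fasting and exercise raise, differed by 0.41 (adjusted p = 0.309), with Exercise 3 at 5.48 and the other 5 arrays between 4.41 and 4.85.

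PPAR, RXR and ERR proteins bind DNA at copies of the hexamer AGGTCA, so the promoter windows of the members, 250 bases before to 50 after the start of the gene (RefSeq, GRCm38.p6), were searched for it on both strands. Windows were found for 31 members, with none for Decr1, Acaa2, Acot13, Angptl4, Cpt1b, Lpl and Crat. The hexamer was present in 11 of 37 member windows (29.7%) and in 16.3% of all 32851 windows. It was present in 1 of the 5 called members that had a window, Echs1, and in 9 of the others. The PPAR and RXR pair of hexamers with 1 base between (AGGTCANAGGTCA) was in 0 member windows and in 0.0396% of all, the ERR element (TCAAGGTCA), which contains the hexamer, was in 1, Acsl6 (0.423% of all windows), and the E-box CACGTG was in 2 (7.15% of all). Only exact matches within these windows were counted. The exact pair was in only 13 of all 32851 windows, so finding 0 in 37 cannot show that members lack such sites. A match describes the letters only, and binding was not measured. Acsl6 had hexamers 167 and 189 bases before the start, the nearer within its ERR element, and Ucp3 had them 149 and 44 bases before. The site of the called gene, the only ERR element and both sites in Ucp3 are shown with the match in capitals, on the strand of the gene. They lie at chr7:140116479-140116524 (minus strand, 83 bases before the start) for Echs1, chr11:54303637-54303685 (plus strand, 167 bases before) for Acsl6, and chr7:100472822-100472867 and chr7:100472927-100472972 (plus strand, 149 and 44 bases before) for Ucp3.
Echs1: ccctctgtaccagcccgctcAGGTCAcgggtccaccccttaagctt
Acsl6: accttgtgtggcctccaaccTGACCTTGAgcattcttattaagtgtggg
Ucp3, far site: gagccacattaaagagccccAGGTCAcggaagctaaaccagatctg
Ucp3, near site: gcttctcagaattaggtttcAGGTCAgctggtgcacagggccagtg
In Acsl6 the element stands on the opposite strand, so the capitals read as its reverse complement.

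**Figure D5:**
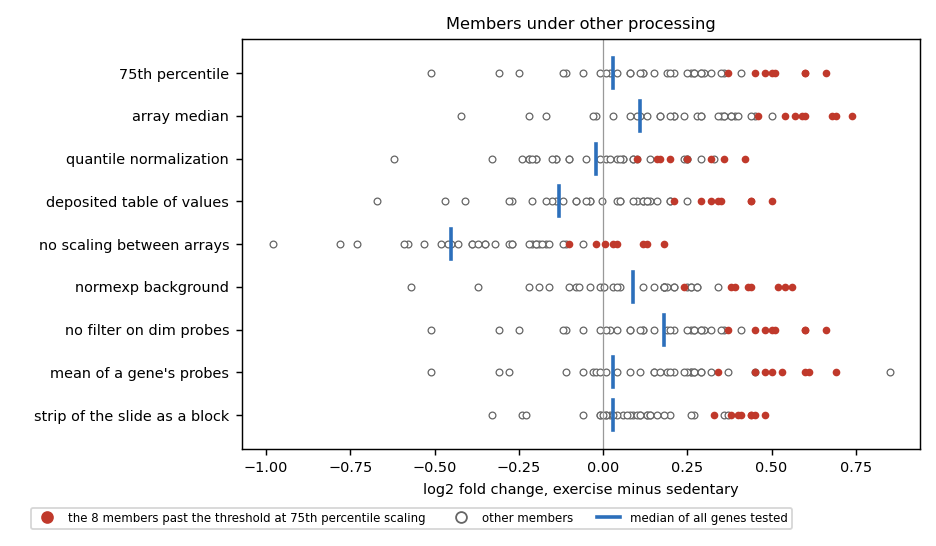
Log2 difference (exercise minus sedentary) of the 38 members under 75th percentile scaling and under 8 other settings, with the 8 members called at 75th percentile scaling in red and a blue bar at the median of all genes tested in that setting. The red points, picked on these same arrays, lie right of the blue bar in every setting shown. The zero line falls among the members in every setting shown, and most members lie left of it when arrays are not scaled.

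The sedentary arrays were brighter, and the direction of many members depended on how the arrays were scaled. Without scaling, the median of all genes and transcripts was -0.45 and that of the members -0.25, 0 members were called higher and 7 were called lower (Acacb, Acot2, Acsl5, Cd36, Cpt1a, Plin2 and Ucp2), where 2.47% of all genes and transcripts were called higher and 45.1% lower. In the deposited table the medians were -0.13 and 0.07, and Acads, Crat and Eci1 were called higher, where 4.69% of all were. With quantile normalization they were -0.02 and 0.05, and Crat alone was called, where 7.46% of all genes and transcripts were called higher. The 8 called members lay above the median of all genes and transcripts in each of 19 settings, between 0.12 for Acot13 and 0.74 for Crat. They had been picked for their differences on these same arrays, so this position was favoured in advance.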

How the data were processed

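Quadriceps RNA of 3 exercised and 3 sedentary mice was labelled with Cy3 and hybridized to 1 slide of Agilent SurePrint G3 arrays. The authors deposited scanner files from Feature Extraction 12.1.0.3, whose processed signal is a linear intensity per spot after background subtraction and removal of spatial trends. They also deposited a table of values with an unstated scaling, in which each column was the processed signal times 1 factor per array (1.33 to 1.88). The methods name iDEP, with an FDR under 0.05 and an absolute log2 difference of at least 1 for a DEG, and no scaling between arrays.

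Control spots (3671 of 62976) and flagged outliers were dropped, replicate spots were averaged per probe, and the 75th percentile of each array was subtracted from log2 of the processed signal. Probes with a missing value (22) were dropped, and a probe was used if 3 or more arrays flagged it as well above background (32726 of 56605). Probes were named through their transcripts in a RefSeq table (GRCm38.p6, for names only), which matched 34566. A gene with several probes is given by the brightest. For 4 of the 16 members with more than 1 kept probe (Acacb, Acsl1, Lpl and Plin2), the probes differed in sign.

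The comparison used lmFit and eBayes of limma 3.58.1 (R 4.3.3, two-sided, no covariates, Benjamini-Hochberg over all 25005). The code was tested on simulated data. The members, the other lists and the genes named (all members, called genes of the pathway and regulator lists, and Ppara, Ppard, Ppargc1a, Slc25a20 and Pdk4) were chosen with earlier results of these data known. The alternatives were other scalings, the deposited table, normexp background with an offset of 50, other filters on dim probes, the mean of a gene's probes, blocking on the replicate number or the strip, array weights, a trended and robust eBayes, and each array left out. Deviations of mice with the same replicate number correlated at 0.02, 0.08 and 0.04. With 3 arrays per group this cannot show whether the numbers pair the mice, and the labels do not say. Only 3 arrays per group limit the precision, and an exact permutation test could not go below p = 0.1.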

Additional observations from a re-analysis of the deposited data

How the results depend on the processing

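The 8 called members were also called with a filter on all arrays, with no filter on dim probes and with normexp background, where 8, 9 and 9 members were called higher beside 15.0, 21.7 and 24.5% of all genes and transcripts, so that without a filter and with normexp the members were near the share of all. Each of the 8 exceeded the median of all genes and transcripts in every setting run, but they had been picked on these same arrays. The share of all genes and transcripts with groups apart was taken only for the comparison above, so the other settings have none beside their counts. Called members (8 higher, 0 lower), members apart above (16) and below (0), called other pathway genes (4), called regulators (5) and the members' median (0.23) changed as follows. Quantile normalization gave 1 member higher (7.46% of all), 8 apart above, 2 below, 1 regulator and a median of 0.05. The deposited table gave 3 higher (4.69% of all), 9 apart above, 3 below, 3 regulators and a median of 0.07. Without scaling there were 0 higher (2.47% of all) and 7 lower (45.1% of all), 1 apart above, 23 below, 28 other pathway genes, 10 regulators and a median of -0.25. Array median scaling gave 7 members higher (10.7% of all), 3 other pathway genes, 3 regulators and a median of 0.32, without Echs1 (adjusted p = 0.0536), Acot11 (0.0866), Esrra (0.0637) and Rxrb (0.0643). With the mean of a gene's probes, Acsl6 was called higher, and Acot11 (-0.29, adjusted p = 0.0951) and Rxra (adjusted p = 0.0539) were not called. Array weights gave 15 higher and 7 other pathway genes (20.5% of all called higher and 14.6% lower). Trend and robust gave 12 higher and 7 other pathway genes (14.9% of all higher and 7.98% lower). With normexp there were 10 other pathway genes (24.5% of all higher and 8.08% lower). With the strip as a block, 0 members, 0 other pathway genes and 0 regulators were called, and the median was 0.12. With the replicate number as a block, 0 members, 0 other pathway genes and 0 regulators were called, as were 0 of all genes and transcripts. Whether the numbers pair the mice is not known. The lowest adjusted p among members was then 0.062 by limma, and 11 members were higher at an unadjusted p under 0.05, as were 19.8% of all. With 1 array left out, called members ranged from 0 to 11, all of them higher. Of all genes and transcripts 0 to 13.9% were then called higher and 0 to 8.25% lower. Members apart below ranged from 0 to 1, called other pathway genes from 0 to 4 and called regulators from 0 to 6. The cause of these changes was not tested.

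The log2 differences that changed sign were these. Without scaling, with all genes and transcripts at a median of -0.45: Slc27a1 -0.39, Slc27a4 -0.32, Lpl -0.45, Acsl1 -0.39, Acsl5 -0.46, Acsl6 -0.11, Cpt1b -0.21, Cpt2 -0.17, Acadvl -0.19, Acadl -0.27, Acadm -0.20, Hadha -0.28, Hadhb -0.35, Hadh -0.20, Echs1 -0.10, Eci2 -0.35, Decr1 -0.18, Ehhadh -0.27, Etfa -0.37, Etfdh -0.22, Mlycd -0.12, Ucp3 -0.16, Pnpla2 -0.43, Plin5 -0.06, Acot13 -0.02, Esrra -0.10, Rxrb -0.12, Ppara -0.39, Ppard -0.28, Ppargc1a -0.39, Slc25a20 -0.21 and Pdk4 -0.07. In the deposited table: Slc27a1 -0.08, Slc27a4 -0.0032, Lpl -0.14, Acsl1 -0.08, Acsl5 -0.15, Hadhb -0.04, Eci2 -0.04, Etfa -0.05, Pnpla2 -0.12, Ppara -0.08 and Ppargc1a -0.08. With quantile normalization: Lpl -0.20, Acsl1 -0.14, Acadvl -0.05, Acadl -0.01, Hadhb -0.14, Eci2 -0.10, Etfa -0.15, Pnpla2 -0.20 and Ppargc1a -0.02. With the strip as a block: Cd36 0.02, Slc27a1 -0.06, Lpl -0.24, Angptl4 0.36, Acsl1 -0.01, Acsl5 -0.01, Cpt1a 0.01, Acacb 0.04, Acot2 4e-04, Ppara -0.22 and Ppargc1a -0.03. With normexp: Slc27a1 -0.00047, Lpl -0.08, Acsl1 -0.01, Pnpla2 -0.04 and Ppara -0.01. With the mean of a gene's probes: Lpl -0.03, Acsl1 -0.02 and Acacb 0.24. With the array median: Acacb 0.08 and Acot2 0.03. With array weights: Lpl -0.0012 and Pnpla2 -0.03. With 1 array left out, Acacb ranged from -0.04 to 0.02, Acot2 from -0.17 to 0.06, Acsl1 from -0.06 to 0.22, Acsl5 from -0.06 to 0.09, Angptl4 from -0.94 to 0.03, Lpl from -0.19 to 0.16, Pnpla2 from -0.07 to 0.17, Ppara from -0.03 to 0.23 and Slc27a1 from -0.08 to 0.24. None of these members but Echs1 and Acot13 was called at 75th percentile scaling.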
